A study of Mus musculus with 8 samples.

Results

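Imprinted genes are transcribed mainly from the copy inherited from one parent, and most lie in clusters whose members share control regions that are methylated on one parental copy. In the cluster that gives this group its name, Igf2, which encodes the fetal growth ligand insulin-like growth factor 2, is transcribed from the paternal copy, and H19, a long noncoding RNA, from the maternal copy. Both are read from a shared set of downstream enhancers that are active in mesodermal and endodermal tissues, and in mice both are abundant in developing skeletal muscle. The counts per gene used here do not tell the parental copies apart, so imprinting itself was not measured.

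The group was defined as 35 known imprinted genes chosen by name, of which 30 had a row among the 37558 genes of the count table. Rian, Mirg, Kcnq1ot1, Snrpn and Peg13 had no row under the identifiers used here and were dropped. Of the 30, 29 reached 1 CPM (a count per 1000000 counts of the library) in at least 1 library, as did 15547 genes of the whole table. Slc22a18, a transporter-like gene of the neighbouring Kcnq1 cluster, stayed at 0.9 CPM or less. By the copy favoured where they are known to be imprinted, 17 of the 30 are paternally and 11 maternally expressed. The copy used depends on the tissue for Grb10 and on the transcript for Gnas.

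The genes were proposed with values of these same 8 libraries in view, so their levels are a description and no test is given for them. RNA was measured in mouse P19 cells, an embryonal carcinoma line able to form muscle or neurons. Cells were transduced with lentivirus carrying GFP, the muscle factor MyoD, the neuronal factor NeuroD2, a chimera labelled MD(ND2bHLH), which is MyoD with the DNA-binding and dimerisation domain (bHLH) of NeuroD2, or the chimera's mutants WC and WCS, whose changes the labels do not define. For the chimera and for WCS a second library carries the label of a multiplicity of infection, or MOI, of 100, and the labels give no MOI for the other 6 libraries. All cultures, GFP included, were infected in the presence of polybrene and later kept in Neurobasal medium with B27 and glutamine. Each of the 8 groups had 1 library, so no value has a replicate, and intervals below are 95% intervals that cover counting error only. In bulk RNA, fewer cells of a type and less RNA per cell cannot be told apart.

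Library totals ran from 26410500 to 43984066 counts. Counts of Myod1, which the constructs other than GFP and NeuroD2 carry in whole or in part, came to 77.3 to 296 CPM without the MOI 100 label and to 555 and 857 CPM with it. Construct and Myod1 level, and in some cases the MOI label, therefore differ together in several comparisons. These counts do not separate the construct from the cells' own Myod1, so the amount delivered was not measured. Of 12 pluripotency markers 10 reached 1 CPM in some library, Pou5f1 stood at 1227 CPM in GFP, and Dppa5a and Zfp42 stayed under 1 CPM throughout. Rn7s6, a 7S RNA gene, had 13 to 16.3 CPM in 4 libraries (GFP, MyoD, WC, WCS) and only 0.565 to 1.28 CPM in the remaining 4, and no label marks such a division.

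The sequences of this group that bear on bHLH factors are the stretches just before the starts of Igf2 and of 2 other members that stood far from GFP, Nnat and Phlda2. A bHLH pair binds the E-box, CANNTG, and the known preferences differ in the middle bases, with MyoD favouring CAGCTG and CAGGTG and NeuroD2 favouring CAGATG and CAGCTG. The 250 bases before each start are shown 5′ to 3′ on the gene's strand, from RefSeq on build GRCm38.p6, in lower case with every E-box in capitals.

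Igf2, start farthest upstream, chr7:142666817-142667066, minus strand: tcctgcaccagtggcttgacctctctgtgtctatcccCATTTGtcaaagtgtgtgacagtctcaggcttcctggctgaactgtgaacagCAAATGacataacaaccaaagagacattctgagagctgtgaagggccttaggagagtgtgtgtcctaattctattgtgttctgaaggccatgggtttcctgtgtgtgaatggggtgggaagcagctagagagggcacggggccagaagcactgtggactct
Igf2, start farthest downstream, chr7:142657497-142657746, minus strand: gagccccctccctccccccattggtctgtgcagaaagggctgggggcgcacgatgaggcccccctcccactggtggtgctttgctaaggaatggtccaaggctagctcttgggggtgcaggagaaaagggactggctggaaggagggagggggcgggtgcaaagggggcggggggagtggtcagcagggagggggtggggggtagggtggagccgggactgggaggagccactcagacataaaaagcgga
Nnat, chr2:157559828-157560077, plus strand: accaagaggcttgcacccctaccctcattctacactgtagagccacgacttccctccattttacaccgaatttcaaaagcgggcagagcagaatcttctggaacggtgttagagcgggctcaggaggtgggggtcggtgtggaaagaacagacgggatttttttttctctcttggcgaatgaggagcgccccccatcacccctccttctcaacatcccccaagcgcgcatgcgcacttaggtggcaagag
Phlda2, chr7:143502525-143502774, minus strand: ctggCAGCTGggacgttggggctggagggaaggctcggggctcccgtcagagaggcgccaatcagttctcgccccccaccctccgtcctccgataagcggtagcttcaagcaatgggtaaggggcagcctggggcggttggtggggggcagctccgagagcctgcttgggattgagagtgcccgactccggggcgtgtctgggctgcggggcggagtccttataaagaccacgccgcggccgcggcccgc

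Igf2 had 4 annotated starts, and 3 of its 4 windows held no CANNTG. The window farthest upstream held CATTTG 213 bases and CAAATG 161 bases before the start, and the Phlda2 window held CAGCTG 246 bases before it. Over the 24 members with such windows, 25 of 38 windows held a CANNTG, or 65.8%, against 66.2% of all 32851 windows. CAGCTG was in 10.5% of member windows and 13% of all. CAGGTG or its reverse complement CACCTG was in 18.4% and 17.2%, and CAGATG or its reverse complement CATCTG in 7.89% and 14.4%. Both strands were searched, CANNTG includes the others, and a match or its absence in such a window says nothing of binding there or elsewhere.

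Igf2 and H19 were high in the same 3 libraries and low in the same 3. Igf2 (ENSMUSG00000048583) stood at 184 CPM in GFP, 3540 in MyoD, 1250 in the chimera, 1689 in the chimera at MOI 100, 95 in WC, 54.8 in WCS, 95.1 in WCS at MOI 100 and 237 in NeuroD2. H19 (ENSMUSG00000000031) stood at 119 CPM in GFP, 892 in MyoD, 674 in the chimera, 533 in the chimera at MOI 100, 19.2 in WC, 13.8 in WCS, 25 in WCS at MOI 100 and 176 in NeuroD2. MyoD and both chimera libraries were above GFP and NeuroD2 for both genes, and the 3 mutant libraries were below both. Between the highest and the lowest library Igf2 spanned 64.6-fold and H19 64.7-fold.

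**Figure D1:**
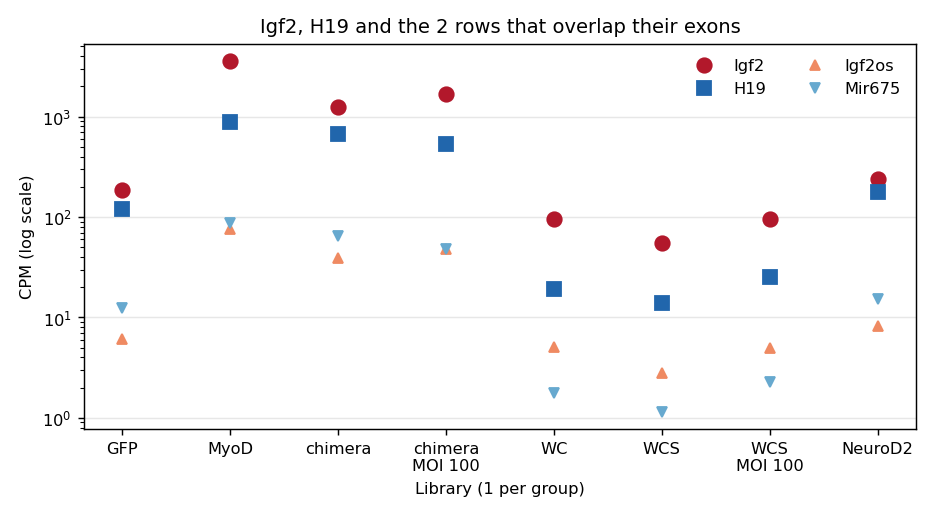
CPM (log scale) of Igf2, of H19, of Igf2os and of Mir675 in each of the 8 libraries, 1 point per gene and library, with no error bars since each group has 1 library. MyoD and the 2 chimera libraries lie above GFP for Igf2 and H19, and WC, WCS and WCS at MOI 100 lie below it.

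Against GFP, Igf2 was 19.2-fold higher in MyoD (interval 18.8 to 19.7), 6.79-fold in the chimera (6.62 to 6.96) and 9.18-fold in the chimera at MOI 100 (8.96 to 9.4). H19 was 7.51-fold higher in MyoD (7.29 to 7.75), 5.68-fold in the chimera (5.5 to 5.86) and 4.49-fold in the chimera at MOI 100 (4.35 to 4.64). In the mutants the H19 level was 6.2-fold lower than in GFP in WC (5.69 to 6.76), 8.61-fold lower in WCS (7.78 to 9.55) and 4.74-fold lower in WCS at MOI 100 (4.4 to 5.12). Igf2 lay closer to GFP there, 1.94-fold lower in WC (1.86 to 2.02), 3.36-fold lower in WCS (3.18 to 3.55) and 1.94-fold lower in WCS at MOI 100 (1.86 to 2.02). NeuroD2 was the library nearest to GFP for both genes, at 1.29-fold for Igf2 (1.24 to 1.33) and 1.48-fold for H19 (1.42 to 1.54). All these ratios share the GFP library.

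The 2 genes were not in a fixed proportion. The number of Igf2 counts per H19 count, which is not corrected for length and so is read only between libraries, was 1.55 in GFP, 3.97 in MyoD, 1.86 in the chimera, 3.17 in the chimera at MOI 100, 4.96 in WC, 3.97 in WCS, 3.8 in WCS at MOI 100 and 1.35 in NeuroD2. It was lowest in NeuroD2 (interval 1.3 to 1.4) and highest in WC (4.54 to 5.42), so it did not follow the level of either gene.

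H19 is the host transcript of miR-675, and the microRNA's own row, Mir675, lies inside an H19 exon in GENCODE M21. Its mature forms, from RefSeq on GRCm38.p6 chromosome 7, minus strand, are shown with the seed, bases 2 to 8, in capitals, because Mir675 counts can be reads of the longer H19 transcript.

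mmu-miR-675-5p: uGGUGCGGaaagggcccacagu
mmu-miR-675-3p: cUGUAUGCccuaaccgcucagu

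Mir675 stood at 12.3 CPM in GFP, 87 in MyoD, 64.4 in the chimera, 48.6 in the chimera at MOI 100, 1.77 in WC, 1.15 in WCS, 2.26 in WCS at MOI 100 and 15.4 in NeuroD2. Its counts came to 8.37% to 10.3% of the H19 counts in every library, and poly(A)-selected libraries do not measure the mature microRNA. Igf2os, an antisense transcript that overlaps Igf2 exons by 98 bases, ran from 2.82 CPM in WCS to 76.1 CPM in MyoD, with 6.13 CPM in GFP and 39.2 and 48.2 CPM in the chimera without and with the MOI 100 label. Since no source used here states a strand setting for the counting, reads of Igf2 and Igf2os cannot be told apart where they overlap.

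Skeletal muscle markers were also high in the libraries with high Igf2 and H19. The summed level of 15 markers was 12226 CPM in MyoD, 1146 in the chimera and 1834 in the chimera at MOI 100, against 30.3 to 89.3 CPM in the other 5 libraries. All 15 reached 1 CPM in MyoD, 14 in each chimera library and 6 or 7 in each of the others. Myog, a defining muscle regulator, had 0 counts in WCS. Of 14 endoderm markers, Sox17, Afp, Ttr, Apoa1, Apob and Alb stayed under 1 CPM in every library. The summed level ran from 39.2 CPM in the chimera at MOI 100 to 82.4 CPM in the chimera, with 56.5 CPM in MyoD and 81.5 CPM in WC. Lama1 alone gave 53.6 CPM of the sum in the chimera and 56.5 CPM in WC. Gata4 was highest in MyoD, at 6.76 CPM against 0.876 CPM in GFP. Gata6, Dab2 and Amn were instead highest in GFP, Gata6 at 12 CPM against 1.7 CPM in the chimera. The sum of 13 mesenchyme markers was 273 CPM in GFP, 284 in MyoD, 631 in the chimera and 504 in the chimera at MOI 100. It was 550 CPM in WC, 465 in WCS, 402 in WCS at MOI 100 and 584 in NeuroD2, so it did not follow Igf2 or H19. Fn1 alone gave 238 CPM of it in GFP and 507 CPM in the chimera. Col1a1, Thy1 and Twist2 were instead highest in GFP. What part these cell types have in the Igf2 and H19 levels was not tested.

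Counted over all 30 genes, MyoD stood farthest from GFP. A gene was counted as apart when it was at least 4-fold higher or lower on log2(CPM + 0.5), a scale that understates ratios of low genes, and the higher of the 2 libraries had 5 CPM or more. In MyoD over GFP 7 of the 30 were higher by that rule and 1 was lower, against 2.75% and 0.92% of the 15547 genes. The median log2 ratio of the 29 genes at 1 CPM or more was 0.85, against -0.03 over all 15547. The 7 were Igf2, H19, Grb10, Magel2, Zim1, Peg10 and Airn, and they include both paternally and maternally expressed genes. The background shares serve as a yardstick only, since the genes were chosen with these values known.

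NeuroD2 over GFP had 3 genes higher (Nnat, Usp29, Airn) and 1 lower (Phlda2), against 4.37% and 1.6% of all genes, with a median of 0.36 against 0.03. The chimera had 3 higher (Igf2, H19, Nnat) and 0 lower, against 2.17% and 0.72%, with a median of 0.49 against 0.03. At MOI 100 the chimera had 5 higher, Peg10 and Airn being added, and 1 lower (Phlda2), against 5.4% and 2.51%, with a median of 0.25 against 0.04. In WC 2 were higher (Nnat, Kcnk9) and 2 lower (H19, Phlda2), against 2.57% and 0.605%, and WCS had the same 2 and 2, against 2.54% and 0.9%. WCS at MOI 100 had 3 higher (Magel2, Nnat, Airn) and 2 lower (H19, Phlda2), against 5.47% and 3%. Medians in the 3 mutant libraries were 0.04, 0.12 and 0.16, against 0.03, 0.02 and 0.01. H19 was thus on the higher side in MyoD and both chimera libraries and on the lower side in all 3 mutant libraries.

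**Figure D2:**
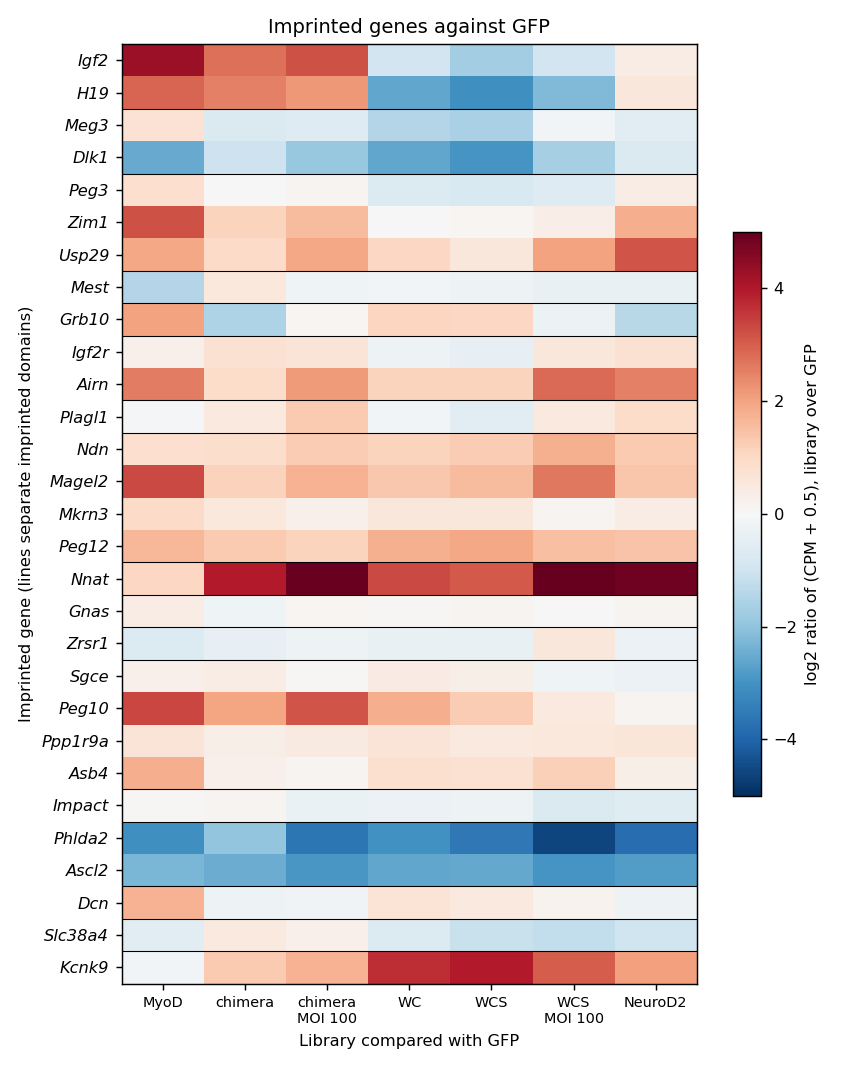
Log2 ratio of (CPM + 0.5) of each of the 29 imprinted genes at 1 CPM or more (rows, grouped by imprinted domain) in each of 7 libraries over GFP (columns), 1 library a group. Igf2 and H19 are red in MyoD and the 2 chimera libraries and blue in the 3 mutant libraries, Nnat is red in all columns, and Phlda2 is blue in all.

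MyoD and NeuroD2 differed directly at 5 of the 30 genes. Igf2, H19, Grb10 and Peg10 were on the MyoD side, against 2.64% of all genes, and Nnat on the NeuroD2 side, against 4.41%. Igf2 was 15-fold higher in MyoD (14.6 to 15.3), H19 5.08-fold (4.93 to 5.24) and Peg10 9.26-fold (9.08 to 9.45).

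Peg10, a paternally expressed gene derived from a retrotransposon and needed for the mouse placenta, was highest in MyoD and in the chimera at MOI 100, but it did not follow Igf2 in the mutants. It stood at 348 CPM in GFP, 3509 in MyoD, 1372 in the chimera, 3060 in the chimera at MOI 100, 1224 in WC, 836 in WCS, 488 in WCS at MOI 100 and 379 in NeuroD2. GFP and NeuroD2 were the 2 lowest, 1.09-fold apart (1.06 to 1.12), and WC lay close to the chimera. Its 10.1-fold excess in MyoD over GFP (9.89 to 10.3) was not shared by Sgce, a sarcoglycan gene transcribed from the neighbouring start, which ran from 97.9 CPM in NeuroD2 to 162 in WC. Ppp1r9a, an actin-binding protein of neurons in the same cluster, ran from 28.9 to 45.6 CPM, and Asb4, a ubiquitin ligase subunit, from 0.389 CPM in GFP to 2.61 CPM in MyoD.

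Grb10, an adaptor that restrains insulin and insulin-like growth factor receptor signalling, showed a pattern of its own. It stood at 12.3 CPM in GFP, 51.8 in MyoD, 3.88 in the chimera, 13.3 in the chimera at MOI 100, 26.2 in WC, 25.7 in WCS, 9.87 in WCS at MOI 100 and 4.44 in NeuroD2. MyoD was highest and the chimera and NeuroD2 lowest, and the mutants without the MOI 100 label lay between. It was 4.21-fold higher in MyoD than in GFP (3.79 to 4.67), just past the 4-fold rule with a log2 ratio of 2.03 and short of it at 1.91 with a pseudocount of 2 CPM, and 11.7-fold higher than in NeuroD2 (9.72 to 14.1).

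The cluster of Snrpn and Ndn has a human counterpart that is lost in Prader-Willi syndrome. All 4 of its genes that belong to the group and had a row were lowest in GFP. Ube3a, of this cluster but outside the group, was also lowest in GFP, at 101 CPM. Atp10a, likewise of this cluster and outside the group, was instead highest in GFP, at 10.8 CPM against 1.53 to 5.18 CPM elsewhere. Magel2, a regulator of protein ubiquitination, stood at 3.84 CPM in GFP, 42 in MyoD, 9.23 in the chimera, 14 in the chimera at MOI 100, 10.5 in WC, 12.5 in WCS, 26.4 in WCS at MOI 100 and 11 in NeuroD2. It was 10.9-fold higher than GFP in MyoD (9.25 to 13) and 6.87-fold in WCS at MOI 100 (5.79 to 8.2). Ndn, which encodes the growth suppressor necdin, ran from 63.8 CPM in GFP to 220 CPM in WCS at MOI 100, Peg12 from 37.4 CPM in GFP to 145 CPM in WCS, and Mkrn3, a ubiquitin ligase, from 19.5 CPM in GFP to 38.3 CPM in MyoD. Those 3 did not meet the 4-fold rule in any comparison.

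The cluster of Peg3 differed between its members. Peg3, a zinc-finger protein of the paternal copy, ran from 204 CPM in WCS to 620 CPM in MyoD. Zim1, a maternally expressed zinc-finger gene beside it, stood at 0.559 CPM in GFP, 9.14 in MyoD, 1.81 in the chimera, 2.67 in the chimera at MOI 100, 0.578 in WC, 0.645 in WCS, 0.846 in WCS at MOI 100 and 3.25 in NeuroD2. MyoD was highest, 16.3-fold above GFP (10.6 to 26.3), on 238 counts against 23. Usp29, a deubiquitinase gene that starts beside Peg3 on the opposite strand, stood at 0.608 CPM in GFP, 3.76 in MyoD, 1.62 in the chimera, 3.75 in the chimera at MOI 100, 1.77 in WC, 1.15 in WCS, 4.01 in WCS at MOI 100 and 9.26 in NeuroD2. It was highest in NeuroD2, 15.2-fold above GFP (10.1 to 24).

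Nnat, which encodes neuronatin, a small membrane protein of developing brain, was higher than in GFP in all 7 other libraries. It stood at 128 CPM in GFP, 265 in MyoD, 2001 in the chimera, 3952 in the chimera at MOI 100, 1280 in WC, 1061 in WCS, 4036 in WCS at MOI 100 and 3792 in NeuroD2. NeuroD2 and the 5 libraries of the chimera and its mutants lay above GFP and MyoD without overlap. Against GFP it was 29.6-fold higher in NeuroD2 (28.8 to 30.5), 31.5-fold in WCS at MOI 100 (30.7 to 32.4) and 2.07-fold in MyoD (2 to 2.15). Neuron markers were high in many of the same libraries. The summed level of 15 of them was 576 CPM in GFP, 328 in MyoD and 959 in the chimera, and 2437 to 6419 CPM in the other 5, and all 15 reached 1 CPM in each of the 6 libraries outside GFP and MyoD. Dcx, a marker of young neurons, had 397 CPM in NeuroD2 and 0.681 CPM in GFP. Some markers were instead lower in the chimera than in GFP. Nefl had 27 CPM there against 74.3 CPM, Nefm 42.4 against 82, Gap43 54.2 against 92.5 and Stmn3 39.4 against 41.7. WC and WCS had less Nnat than the chimera and a higher sum of neuron markers. Not every marker was higher in WC, where Neurod1 had 35.9 CPM against 38.6 CPM for the chimera. The part of a neuronal state in the Nnat level was not tested.

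Kcnk9, a potassium channel gene expressed from the maternal copy in brain, was highest in the mutants. It stood at 0.0486 CPM in GFP, 0 in MyoD, 0.866 in the chimera, 1.32 in the chimera at MOI 100, 6.58 in WC, 7.98 in WCS, 3.95 in WCS at MOI 100 and 1.78 in NeuroD2. GFP had 2 counts and MyoD 0, where a count of 0 allows up to 0.115 CPM. WCS was 164-fold above GFP with a wide interval (44.9 to 1363) and 9.21-fold above the chimera (5.99 to 14.8). With a pseudocount of 2 CPM Kcnk9 did not meet the rule in WC or WCS over the chimera.

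Phlda2, a maternally expressed growth-restricting gene of the placenta in the Kcnq1 cluster, went the other way. It stood at 29.7 CPM in GFP, 3.11 in MyoD, 7.12 in the chimera, 1.98 in the chimera at MOI 100, 3.21 in WC, 2 in WCS, 0.752 in WCS at MOI 100 and 1.68 in NeuroD2. GFP was above all 7 other libraries, from 4.17-fold in the chimera (3.58 to 4.89), just short of the rule on its log2 scale, to 39.5-fold in WCS at MOI 100 (26.4 to 61.9). Ascl2, a bHLH factor of the trophoblast in the same cluster, stood at 4.86 CPM in GFP and at 0.188 to 0.614 CPM in the others, 7.92-fold lower in MyoD (4.76 to 14.1) and 17.4-fold lower in NeuroD2 (8.66 to 40.9). It did not reach 5 CPM, so the rule could not count it. Slc22a18 was likewise highest in GFP, at 0.9 CPM.

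The summed levels of trophoblast markers and of pluripotency markers were also highest in GFP, though not those of every marker. The sum of 12 trophoblast markers was 103 CPM in GFP and 16 to 45.5 CPM elsewhere, and Esx1 alone gave 69.8 CPM of it in GFP. Eomes was instead highest in WC, at 10.7 CPM against 3.09 in GFP, and Cdx2 in WCS at MOI 100, at 2.32 CPM against 0. Elf5, Hand1, Tpbpa, Prl3d1, Krt7, Gcm1 and Psg17 stayed under 1 CPM in every library and Tpbpa had no count at all. The 12 pluripotency markers summed to 2890 CPM in GFP and to 445 to 1303 CPM elsewhere, with Pou5f1 and Lin28a giving 1227 and 1093 CPM in GFP. Sox2 was highest in WCS, at 205 CPM against 124 in GFP, Esrrb in the chimera at MOI 100 and Fgf4 in MyoD. Their part in the levels of Phlda2 and Ascl2 was not tested.

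**Figure D3:**
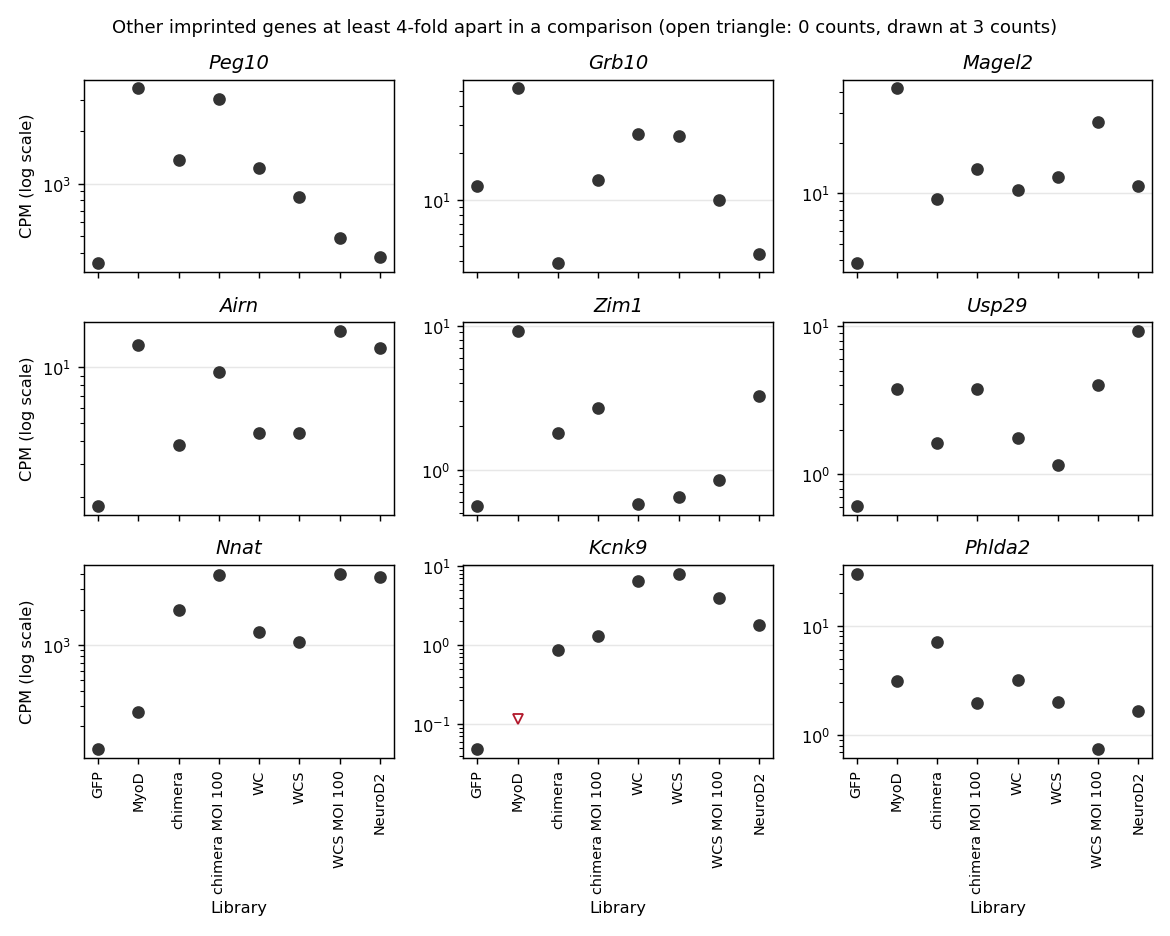
CPM (log scale) of the 9 imprinted genes other than Igf2 and H19 that were at least 4-fold apart in a comparison, 1 point per library and no error bars with 1 library a group. The open triangle marks the 0 counts of Kcnk9 in MyoD, drawn at the level of 3 counts. Nnat is lowest in GFP and MyoD. Peg10 is highest in MyoD and the chimera at MOI 100, and Phlda2 is highest in GFP.

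Igf2r, the receptor that clears insulin-like growth factor 2, and Airn, the noncoding RNA of the paternal copy that runs antisense across its start, differed in pattern. Igf2r stood at 45.1 CPM in GFP, 53.7 in MyoD, 77.8 in the chimera, 70.4 in the chimera at MOI 100, 38.2 in WC, 33.5 in WCS, 66.7 in WCS at MOI 100 and 76.5 in NeuroD2. Airn stood at 1.78 CPM in GFP, 13.1 in MyoD, 3.81 in the chimera, 9.44 in the chimera at MOI 100, 4.4 in WC, 4.42 in WCS, 15.6 in WCS at MOI 100 and 12.6 in NeuroD2. Airn was 7.35-fold above GFP in MyoD (5.7 to 9.6), 7.08-fold in NeuroD2 (5.49 to 9.24) and 8.81-fold in WCS at MOI 100 (6.88 to 11.4), while Igf2r in those libraries was 1.19-fold, 1.7-fold and 1.48-fold above GFP. With a pseudocount of 2 CPM Airn no longer met the rule in MyoD, NeuroD2 or the chimera at MOI 100 over GFP. No shared exon bases of Igf2r and Airn were found in GENCODE M21. Airn is mostly unspliced, so without a known strand setting part of a count can still belong to the other gene.

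Igf2r and Plagl1 were also split along the line that Rn7s6 draws between libraries. Plagl1, a zinc-finger factor known in mice to regulate other imprinted genes, Igf2 and H19 among them, stood at 445 CPM in GFP, 431 in MyoD, 627 in the chimera, 1107 in the chimera at MOI 100, 402 in WC, 313 in WCS, 632 in WCS at MOI 100 and 831 in NeuroD2. For both genes the 4 libraries with low Rn7s6 were above the 4 with high Rn7s6, without overlap, and the part of that split in their levels was not tested. The share of all genes split in this way was not counted. Both genes were picked after their values were seen, so the split is a description only. Plagl1 was 1.03-fold lower in MyoD than in GFP and was highest in the chimera at MOI 100. Its part in the Igf2 and H19 levels was not tested.

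The cluster of Dlk1 and Meg3 was uneven. Meg3, its maternally expressed noncoding RNA, stood at 331 CPM in GFP, 553 in MyoD, 202 in the chimera, 211 in the chimera at MOI 100, 118 in WC, 108 in WCS, 305 in WCS at MOI 100 and 231 in NeuroD2. Dlk1, a Notch-like membrane protein of the paternal copy, peaked at 3.92 CPM in GFP and stood at 0.269 CPM in MyoD and 0.0679 CPM in WCS, where it had 2 counts. Rtl1, a retrotransposon-derived gene of the same paternal copy that was not among the 35, had 32.6 CPM in MyoD and between 0.803 and 2.06 CPM elsewhere.

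The remaining members spanned less than 4-fold or stayed low. Mest, a hydrolase-like protein, ran from 200 CPM in MyoD to 795 CPM in the chimera, and Copg2, whose exons overlap Mest by 912 bases on the opposite strand, was lowest and highest in the same libraries, at 221 and 442 CPM. Gnas, the stimulatory G protein subunit, stayed within 1.52-fold, from 1044 to 1584 CPM. Gm20721, whose exons overlap Gnas by 1469 bases on the opposite strand, ran from 1005 to 1384 CPM, so the rows may share reads. Impact, a translation regulator, ran from 103 to 184 CPM, Zrsr1, a splicing factor gene inside Commd1, from 13.4 to 33 CPM, and Slc38a4, an amino acid transporter of the placenta, from 57.3 CPM in WCS at MOI 100 to 190 CPM in the chimera. Dcn, the matrix protein decorin, did not pass 1.65 CPM. In all, 18 of the 29 genes at 1 CPM or more met the 4-fold rule in none of the 13 comparisons, and Dlk1, Asb4, Ascl2 and Dcn among them never reached the 5 CPM it needs. The share of all genes that met the rule in none of these comparisons was not counted, so the number is a description only.

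The mutants were next set against the chimera, a comparison that leaves GFP out. In WC over the chimera 2 genes were higher (Grb10, Kcnk9) and 2 lower (Igf2, H19), against 0.47% and 0.566% of all genes. WCS over the chimera gave the same 2 and 2, against 0.592% and 0.753%. At MOI 100 WCS over the chimera gave 0 higher and 3 lower (Igf2, H19, Peg10), against 0.585% and 1.22%. Medians over the 29 genes were -0.11, -0.36 and -0.08, against 0.01, 0.01 and -0.03 over all genes.

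Igf2 was 13.2-fold lower than in the chimera in WC (12.7 to 13.7), 22.8-fold in WCS (21.7 to 24) and 17.8-fold in WCS at MOI 100 (17.1 to 18.4). For H19 the ratios were 35.2-fold lower in WC (32.4 to 38.2), 48.9-fold in WCS (44.3 to 54) and 21.3-fold in WCS at MOI 100 (19.8 to 22.9). Both genes were thus far lower at either MOI label, and Peg10 was 1.64-fold lower in WCS without the label (1.61 to 1.67) and 6.27-fold lower with it (6.16 to 6.37). Grb10 was 6.63-fold higher in WCS without the label (5.39 to 8.22) and 1.35-fold lower with it (1.16 to 1.57). Myod1 differed between WCS and the chimera as well, at 77.3 against 116 CPM without the label and 857 against 555 CPM with it. These counts do not separate the construct from the cells' own Myod1, and its part in the Igf2 and H19 levels was not tested.

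**Figure D4:**
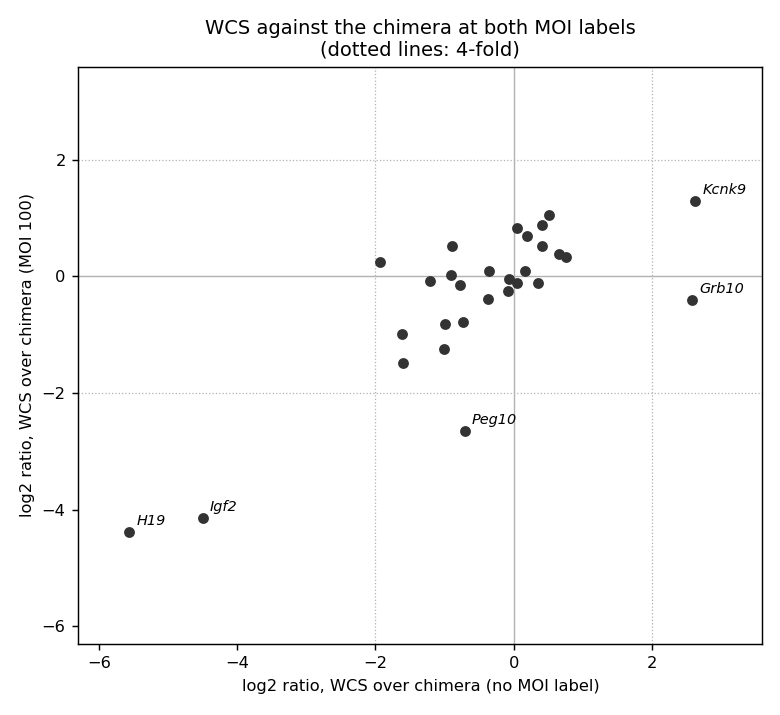
Log2 ratio of (CPM + 0.5) in WCS over the chimera for the 29 imprinted genes at 1 CPM or more, without the MOI 100 label (horizontal axis) and with it (vertical axis), 1 point per gene. Igf2 and H19 lie past 4-fold lower on both axes, Peg10 only on the vertical axis and Grb10 and Kcnk9 past 4-fold higher only on the horizontal axis.

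No member met the rule between libraries with and without the MOI 100 label. In the chimera at MOI 100 over the chimera 0 were higher and 0 lower, against 0.727% and 0.199% of all genes, and in WCS at MOI 100 over WCS 0 and 0, against 0.714% and 0.463%. With shares this small, a count of 0 among 29 genes is near the background, and it does not set the members apart from other genes. Igf2 was 1.35-fold higher at MOI 100 in the chimera (1.33 to 1.37) and 1.74-fold in WCS (1.63 to 1.85). H19 was 1.26-fold lower in the chimera (1.24 to 1.29) and 1.82-fold higher in WCS (1.61 to 2.05). Nnat was 1.98-fold higher in the chimera (1.96 to 2) and 3.8-fold in WCS (3.76 to 3.85).

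Since the mutants lay below GFP and NeuroD2 for both lead genes, they were also compared with NeuroD2, a choice made after these values were seen. WC over NeuroD2 had 1 gene higher (Grb10) and 2 lower (H19, Usp29), against 0.193% and 0.611% of all genes. WCS had 1 higher (Grb10) and 3 lower (Igf2, H19, Usp29), against 0.167% and 0.675%, and WCS at MOI 100 had 0 higher and 1 lower (H19), against 0.251% and 0.206%. With a pseudocount of 2 CPM Usp29 did not meet the rule in WC or WCS over NeuroD2. H19 was 9.17-fold lower than in NeuroD2 in WC (8.42 to 10), 12.7-fold in WCS (11.5 to 14.1) and 7.02-fold in WCS at MOI 100 (6.51 to 7.57), and Igf2 was 2.49-fold lower (2.39 to 2.6), 4.32-fold (4.09 to 4.56) and 2.49-fold (2.38 to 2.6). Nnat in WCS at MOI 100 was within 1.06-fold of NeuroD2 (1.06 to 1.07), so the 2 libraries were close for Nnat and far apart for H19.

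The other genes of the insulin-like growth factor pathway gave the ligand its context. Of 25 named genes 22 reached 1 CPM in some library. Igf1, the sister ligand, stayed under 1 CPM everywhere. In MyoD over GFP 3 were at least 4-fold higher (Igfbp3, Igfbp4, Igfbp5) and 1 lower (Igfbpl1), against 2.75% and 0.92% of all genes, with a median log2 ratio of 0.21 against -0.03. NeuroD2 had 4 higher (Insrr, Igfbp4, Igfbp5, Pappa) and 0 lower, against 4.37% and 1.6%, with a median of 0.28 against 0.03. The chimera had 1 higher (Igfbp5) and 0 lower, against 2.17% and 0.72%, with a median of 0.46 against 0.03, and 1 of 22 is near the share of all genes. At MOI 100 the chimera had 3 higher (Irs1, Igfbp5, Igfbpl1), against 5.4%. In the mutants, WC had 2 higher (Igfbp5, Igfbpl1), against 2.57%, and WCS had 1 (Igfbp5), against 2.54%. WCS at MOI 100 had 3 higher (Igfbp5, Igfbpl1, Pappa), against 5.47%. In these libraries 0 were lower, against 0.605% to 3% of all genes.

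Igfbp5, a binding protein of insulin-like growth factors made by differentiating muscle, was above GFP in all 7 other libraries. It stood at 55.3 CPM in GFP, 2592 in MyoD, 2306 in the chimera, 4132 in the chimera at MOI 100, 399 in WC, 269 in WCS, 841 in WCS at MOI 100 and 1131 in NeuroD2. MyoD and the chimera libraries were the 3 highest, as for Igf2, and NeuroD2 was 20.4-fold above GFP (19.6 to 21.3) where its Igf2 was 1.29-fold above. WCS was 8.56-fold below the chimera for Igfbp5 (8.36 to 8.77). Igfbp3, another binding protein, was highest in MyoD at 281 CPM, and ran from 8.79 to 50.7 CPM elsewhere. Igf1r, the signalling receptor, ran from 83.6 to 166 CPM, highest in MyoD, and Irs1, its adaptor, from 13 CPM in GFP to 89.1 CPM in the chimera at MOI 100. Pappa, a protease that cuts binding proteins, was highest in WCS at MOI 100 at 54.7 CPM, against 4.33 CPM in GFP.

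**Figure D5:**
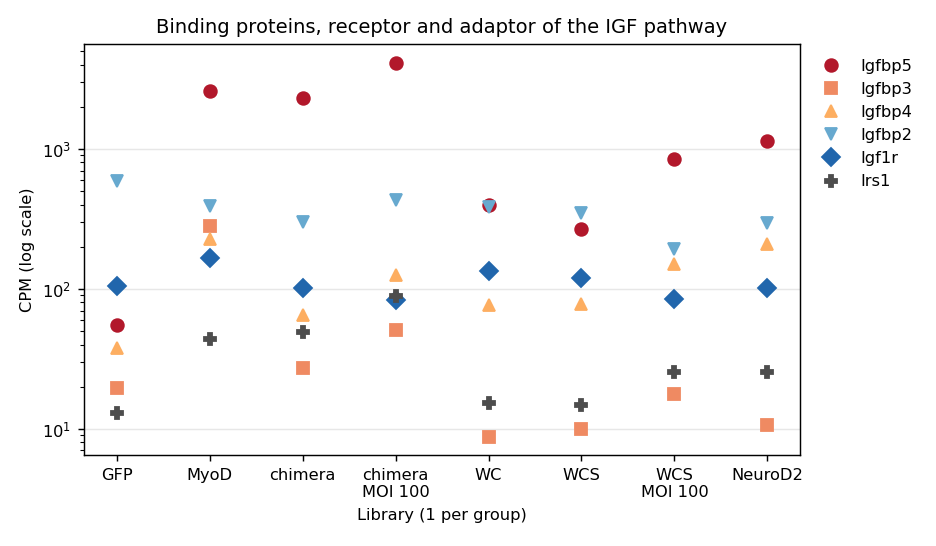
CPM (log scale) of Igfbp5, Igfbp3, Igfbp4, Igfbp2, Igf1r and Irs1 in each of the 8 libraries, 1 point per gene and library, no error bars with 1 library a group. Igfbp5 is lowest in GFP at 55.3 CPM and highest in the chimera at MOI 100 at 4132 CPM, while Igf1r stays between 83.6 and 166 CPM.

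Among 44 further imprinted genes outside the 35, 42 had a row and 29 reached 1 CPM. In MyoD over GFP 4 were at least 4-fold higher (Cdkn1c, Rtl1, Gatm, Ddc) and 0 lower, against 2.75% and 0.92% of all genes, with a median of 0.11 against -0.03. Gatm, the first enzyme of creatine synthesis and imprinted in mouse placenta, stood at 4.5 CPM in GFP, 149 in MyoD, 43.2 in the chimera, 70 in the chimera at MOI 100, 1.35 in WC, 1.26 in WCS, 3.38 in WCS at MOI 100 and 2.73 in NeuroD2. It was high in the same 3 libraries as Igf2 and H19 and below GFP in the 3 mutant libraries, like them, and unlike them it was below GFP in NeuroD2 too. Cdkn1c, a cell cycle inhibitor of the Kcnq1 cluster, stood at 5.72 CPM in MyoD and 0.316 CPM in GFP.

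For factors known to keep or copy imprints, few values were far from GFP. Of 23 named, 20 reached 1 CPM, and 0 were 4-fold apart from GFP in MyoD, NeuroD2, the chimera, WC or WCS. Since 0.605% to 4.37% of all genes were apart in 1 direction in those comparisons, a count of 0 among 20 is near the background. Dnmt3b, a DNA methyltransferase, stood at 121 CPM in GFP, 41.1 in MyoD, 37.3 in the chimera and 39.7 in NeuroD2, and was 6.15-fold below GFP in the chimera at MOI 100 (5.63 to 6.72) and 5.67-fold in WCS at MOI 100 (5.23 to 6.15). In WCS at MOI 100 Tet3, which oxidises methylated DNA, was 4.14-fold above GFP. Ctcf, the insulator protein that binds the control region between Igf2 and H19, ran from 116 to 145 CPM, and Zfp57, a zinc-finger protein that guards imprints in mouse embryos, from 34.3 CPM in WCS to 89.2 CPM in GFP. Zfp57 stood at 42.3 CPM in the chimera and at 79.6 CPM in MyoD. What part these factors have in the Igf2 and H19 levels was not tested.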

How the data were processed

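Deposited were raw read counts, 1 row per Ensembl gene and 1 column per poly(A)-selected library, and all 8 columns were used. CASAVA 1.8.2, TopHat2 2.0.8 and build mm9 are named in the submitters' processing notes. No source used here gives the counting tool, the annotation release or the strand setting, so overlapping and antisense genes may share reads. Symbols matched by Ensembl identifier to GENCODE M21 for 32850 of 37558 genes (87.5%). M21 and the printed sequences are on another build than mm9, so no coordinates of the counts are given.

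CPM are counts scaled to 1000000 per library with TMM factors over the 8 libraries (edgeR 4.0.16, R 4.3.3). A gene was counted as apart at 4-fold or more on log2(CPM + 0.5) with 5 CPM or more in the higher library. Each CPM ratio has a 95% interval from the 2 counts by the exact Clopper-Pearson method, and a count of 0 was read against 3 counts. With 1 library a group and genes proposed from these libraries, no test was made. The members, gene lists and comparisons were chosen with earlier results of these data known, and the 3 comparisons with NeuroD2 after the values were seen. Named were all members with a row, with all 8 values for Igf2, H19 and each of the 11 counted as apart in any comparison, and up to 6 members a list counted as apart in the other lists. All 8 values of Meg3, Igf2r and Plagl1, a seventh pathway gene and the list genes never counted as apart were chosen after their values were seen. The results were recomputed with size factors from DESeq2 1.42.0, with scaling to total gene counts, with a pseudocount of 2 CPM and without a minimum level. Scripts ran in Python 3.11.15 with scipy 1.17.1, and the counting rule was tested on simulated data. The simulation held counting error only and changes larger than the rule needs, in genes of higher level. It says nothing of variation between cultures or of low genes.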

Additional observations from a re-analysis of the deposited data

Results flagged for a closer look

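The effect of the MOI 100 label ran in opposite directions in the chimera and in WCS for 2 members, by at least 2-fold each way, with 1 library in each group. Grb10 was 3.43-fold higher at MOI 100 in the chimera and 2.61-fold lower in WCS. Dlk1 was 2.39-fold lower at MOI 100 in the chimera and 13.4-fold higher in WCS, on 2 counts in WCS without the label. Neither difference was tested.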

How the results depend on the processing

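Over 16 comparisons and 4 alternatives, the number of imprinted genes counted as apart stayed within 1.5-fold of the main count except in 2 cases. Without a minimum level WCS at MOI 100 over GFP had 8 in place of 5, since Usp29, Ascl2 and Kcnk9 were then counted. With total gene counts WCS at MOI 100 over WCS had 1, Nnat, in place of 0. All 58 ratios counted as apart kept their direction under every alternative, but some no longer met the rule with a pseudocount of 2 CPM. These were, as log2 ratios over GFP, Grb10 (1.91) and Airn (just short of 2) in MyoD and Airn in NeuroD2 (1.95) and in the chimera at MOI 100 (1.60). Kcnk9 was lost in WC (1.58) and WCS (1.8) over the chimera, and Usp29 in WC (-1.58) and WCS (-1.84) over NeuroD2. The other 3 alternatives lost none and added some. Scaling to total gene counts moved the median of all genes by 0.15 on the log2 scale in NeuroD2 over GFP, 0.13 in the MOI 100 chimera and 0.21 in the MOI 100 WCS library over GFP, -0.14 in MyoD over NeuroD2 and 0.13 in WCS at MOI 100 over WCS, and values are relative to the TMM scale. No paired analysis was possible because each group has 1 library, and for the same reason no library could be left out. Members under 5 CPM rest on few counts.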
